A study of Clonorchis sinensis with 4 samples.

Results

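miR-1 and miR-133 are the muscle miRNAs of many animals, and in these tables of the liver fluke Clonorchis sinensis they are 5 entries. The members are the entries listed as known mature miRNAs under the ids miR-1, miR-1_1, miR-1a-5p, miR-1b-3p and miR-133, which are 5 of 55 known miRNAs in the tables. By their name prefixes miR-1 and miR-133 were named from C. sinensis, miR-1_1 from Schistosoma japonicum, and miR-1a-5p and miR-1b-3p from Schistosoma mansoni. All 5 members had tags in eggs, metacercariae and adults, and 4 had tags in vesicles. The study profiled small RNA of fluke eggs, of metacercariae, the encysted larvae that fish carry, of adult worms, and of extracellular vesicles that adult worms release. Each group was 1 library of total RNA so no difference between groups has a replicate check or a test, and a fold below compares libraries. The labels give the stage or the vesicle source only, name no strain, host, age or treatment, and do not say how many worms or eggs were pooled. In such libraries fewer muscle cells and less of the miRNA per cell cannot be told apart.

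In animals from nematodes to mammals miR-1 is made in muscle cells, where it lowers the levels of its target mRNAs through a seed near its 5′ end. miR-133 is transcribed together with miR-1 in vertebrates, and both act in the growth and differentiation of muscle. A miRNA hairpin has a pair of arms, 5p and 3p, and usually 1 arm gives most of the mature RNA. The mature miR-1 sequence is much alike across animals, so an entry name does not show the species a tag came from. No table used here gives the sequence of a member, and none is printed.

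Known and predicted miRNAs had 4339591 tags in the egg library, 8559610 in that of metacercariae, 3567193 in adults and 302004 in vesicles. They were 21.1%, 41.8%, 18.4% and 12.8% of all annotated tags, so miRNAs as a class also took a larger share in metacercariae. Levels are given in RPM, tags per 1000000 miRNA tags of the library, with exact 95% intervals that cover counting error only.

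miR-1, the main entry, had 134928 RPM in metacercariae (134682 to 135174, from 1154930 tags). It had 25996 RPM in vesicles (25424 to 26578), 20099 in adults (19952 to 20246) and 18409 in the egg library (18281 to 18537). No 2 of these 4 intervals overlapped, but eggs, adults and vesicles lay close together and metacercariae stood apart. In metacercariae it was the third of 161 miRNAs by tags. It was the sixth of 152 in adults, the seventh of 63 in vesicles and the ninth of 147 in eggs.

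miR-133 was scarce everywhere. It had 172.9 RPM in metacercariae (164 to 182, from 1480 tags), 9.22 in eggs (6.59 to 12.6, from 40 tags) and 7.57 in adults (4.99 to 11.0, from 27 tags). The intervals of eggs and adults overlapped, and metacercariae lay above both. In vesicles it had 0 tags of 302004, which allows up to 3 tags or 9.93 RPM. The exact 95% interval reached 12.2 RPM. Both limits are above the adult level, so a difference between vesicles and adults was not detectable at this depth.

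The rarer miR-1 entries did not share 1 order of libraries. miR-1a-5p, the 5p arm, had 5577 RPM in metacercariae, 1332 in eggs, 1229 in adults and 86.1 in vesicles, the last from 26 tags. miR-1b-3p had 20510 RPM in vesicles, 3137 in metacercariae, 1559 in adults and 771 in eggs. miR-1_1 had 832 RPM in metacercariae, 529 in eggs, 361 in adults and 123 in vesicles. Metacercariae were thus highest for miR-1a-5p and miR-1_1 and vesicles for miR-1b-3p, with no overlap of intervals between neighbours in any of these orders.

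**Figure D1:**
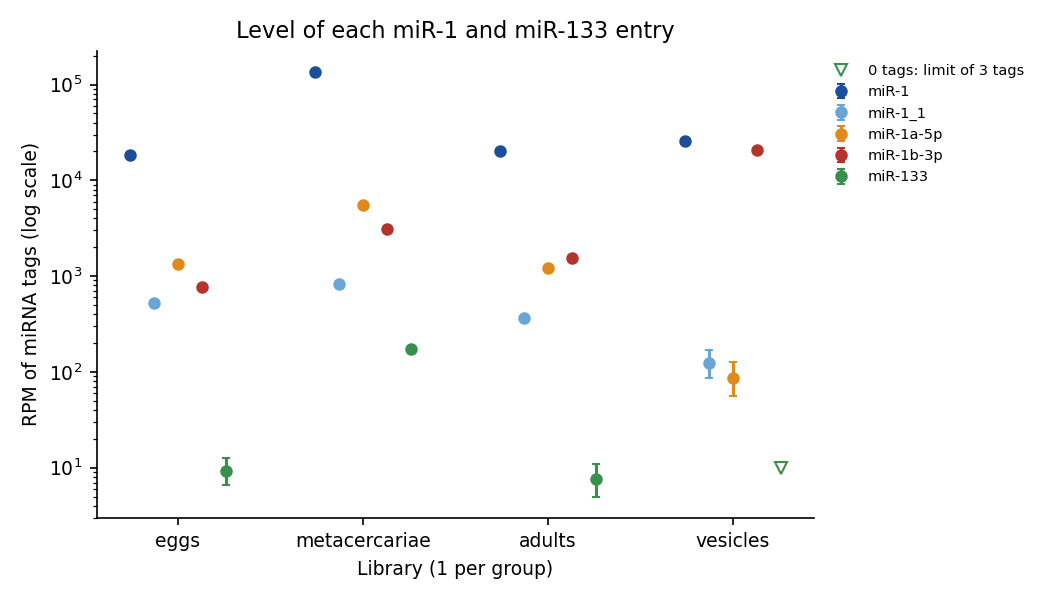
Level of each member in each library, in RPM of miRNA tags on a log axis. Points are single libraries, bars are exact 95% counting intervals, and the open triangle marks the limit of 9.93 RPM that 0 miR-133 tags allow in vesicles. miR-1 and miR-133 peak in metacercariae, and miR-1b-3p in vesicles.

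Summed over its 4 entries, the miR-1 family took 14.4% of miRNA tags in metacercariae (95% Clopper-Pearson interval 14.4 to 14.5). It took 4.67% in vesicles (4.60 to 4.75), 2.32% in adults (2.31 to 2.34) and 2.10% in eggs (2.09 to 2.12). Among families of known miRNAs it was the third of 32 in metacercariae, the fourth of 23 in vesicles, and the sixth of 32 in adults and of 34 in eggs. miR-133 never passed 0.0182% of miRNA tags, the upper bound of its share in metacercariae.

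Within the family, the entry miR-1 made up most tags of every stage. Its share was 93.4% in metacercariae (93.3 to 93.4), 87.5% in eggs (87.3 to 87.7) and 86.5% in adults (86.2 to 86.7). In vesicles it was 55.6% (54.8 to 56.5), and miR-1b-3p there held 43.9% (43.1 to 44.7). The share of miR-1b-3p was 6.71% in adults, 3.66% in eggs and 2.17% in metacercariae. miR-1a-5p held 6.33% in eggs, 5.29% in adults, 3.86% in metacercariae and 0.184% in vesicles (0.120 to 0.270). miR-1_1 held 2.51% in eggs, 1.55% in adults, 0.576% in metacercariae and 0.262% in vesicles.

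**Figure D2:**
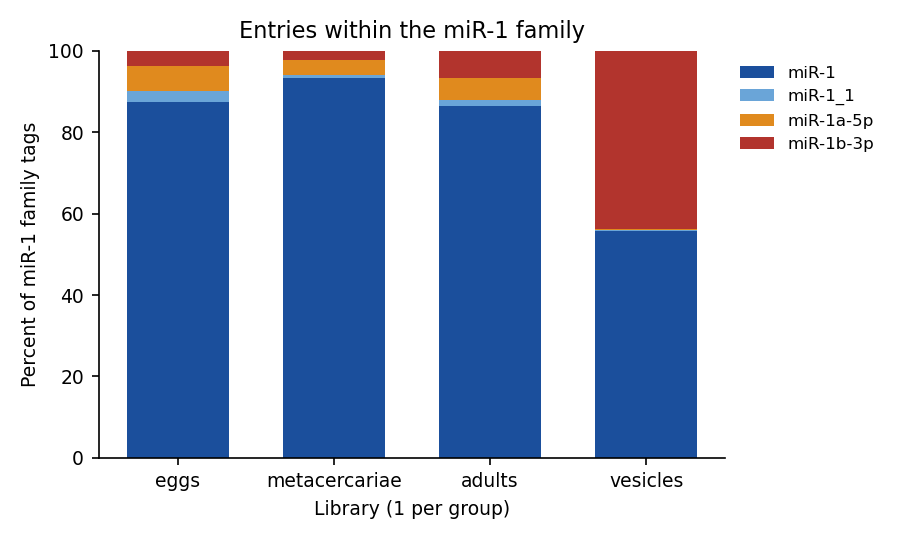
Share of each entry in the miR-1 family tags of each library, in percent. The bars of the 3 stages are mostly miR-1, at 86.5% to 93.4%, and the vesicle bar splits into 55.6% miR-1 and 43.9% miR-1b-3p.

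Ratios of tags within a library need no scaling between libraries. There were 836 miR-1 family tags for each miR-133 tag in metacercariae (794 to 880). The ratio was 2283 in eggs (1676 to 3195) and 3072 in adults (2111 to 4661), whose intervals overlapped each other and lay above that of metacercariae. In vesicles it was at least 4703, computed against 3 miR-133 tags. Without miR-1b-3p that bound was 2638, below the adult ratio of 2866 without that entry, so vesicles and adults cannot be ordered. Relative to miR-1, miR-133 was therefore most abundant in metacercariae.

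miR-1a-5p, the 5p arm, was a smaller part of the family in vesicles than in any stage. The other miR-1 entries together had 14.8 tags per miR-1a-5p tag in eggs (14.4 to 15.2). They had 24.9 in metacercariae (24.7 to 25.1) and 17.9 in adults (17.4 to 18.5). In vesicles the ratio was 542 (369 to 829). The entry miR-1 had 43.0 tags per miR-1b-3p tag in metacercariae, 23.9 in eggs, 12.9 in adults (12.5 to 13.2) and 1.27 in vesicles (1.23 to 1.31). The entries miR-1, miR-1_1 and miR-1b-3p are like-named, their sequences were not compared, and how the authors' matching split tags between them is not given in the sources used here.

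**Figure D3:**
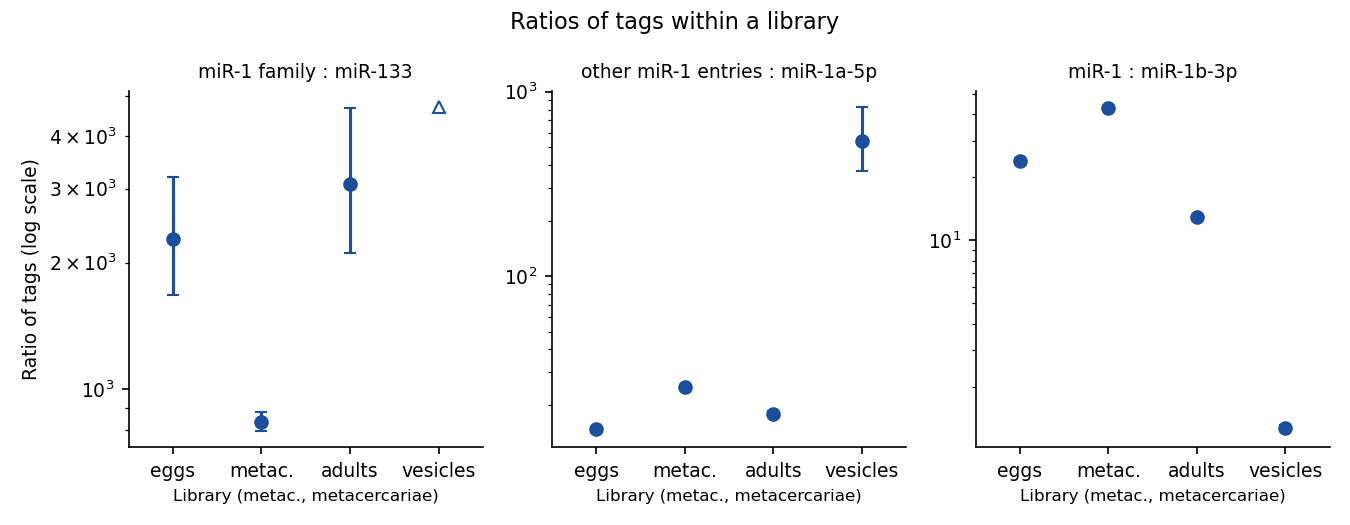
Ratios of tags within each library, on log axes, for miR-1 family to miR-133, the other miR-1 entries to miR-1a-5p, and miR-1 to miR-1b-3p. Points are single libraries with exact 95% counting intervals, and the open triangle is a lower bound. The first ratio is lowest in metacercariae (836), the second highest in vesicles (542) and the third lowest in vesicles (1.27).

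Metacercariae against adults addresses how the infective larva differs from the mature worm. All 5 members had more miRNA RPM in metacercariae, by 22.8-fold for miR-133 (15.6 to 34.8) and 6.71-fold for miR-1 (6.66 to 6.76). miR-1a-5p had a ratio of 4.54 (4.40 to 4.68), miR-1_1 of 2.30 (2.17 to 2.45) and miR-1b-3p of 2.01 (1.95 to 2.07). The family sum had a ratio of 6.21 (6.17 to 6.26). The size rule for a higher or lower entry asked for a fold of 4 or more on RPM + 1, for 10 or more tags in the library with more, and for a counting interval of the ratio beyond 2-fold. By that rule 3 of 5 members, miR-133, miR-1 and miR-1a-5p, were higher and 0 lower, against 9.34% of 182 miRNAs higher and 23.6% lower (17 and 43). Over all miRNAs that split depended on the scale, with 30 higher and 12 lower by the authors' RPM of annotated tags, 25 and 24 with TMM factors, and 27 and 23 with median-of-ratios factors. The members' median log2 fold was 2.18, and that of all 182 miRNAs was -0.75. Of the 182, 128 were predicted miRNAs. The 54 known miRNAs, the class of the members, had a median of -0.32, with 11 higher and 7 lower by the size rule.

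In the order of log2 fold, from the highest, miR-133 was the fourth and miR-1 the tenth of 182. The neuronal miR-124 entries were at the top, with ratios of 45.4 for miR-124b-5p and 32.2 for miR-124a-3p. The miR-1 family had 4.16 tags per miR-124 tag in adults (4.09 to 4.22), 2.68 in eggs (2.65 to 2.72) and 0.791 in metacercariae (0.789 to 0.793). miR-1_1 was also counted as higher with TMM factors (log2 2.06), median-of-ratios factors (2.17) and the authors' RPM of annotated tags (2.37), and miR-1b-3p with the last (2.19). With the authors' RPM all 5 members were counted. The direction of each member held under every scaling tried.

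Markers of vertebrate muscle were looked for, since metacercariae lie in fish flesh. No tag was listed under mir-206, mir-208, mir-499 or mir-486, 0 of 4 families, in metacercariae, eggs or adults. The list leaves out miR-1 and miR-133 themselves, so it cannot show that vertebrate muscle RNA was absent. The Rfam precursor classes mir-1 and mir-133, described below, had 6941 and 474 tags in metacercariae and 46 and 4 in adults. Their species of origin is not given. Of 11 families of mammalian blood, liver and bile duct, 9 had tags in metacercariae, 6 in eggs and 6 in adults. They summed to 75.5, 38.8 and 36.2 RPM of annotated tags, and 1303 of the 1548 metacercaria tags were mir-451, a miRNA of red blood cells. Of 10 other vertebrate families 8, 8 and 7 had tags in metacercariae, eggs and adults, at 35.0, 95.6 and 46.2 RPM. The entry miR-1 had 56363 RPM of annotated tags in metacercariae. The part of vertebrate RNA in the metacercaria level of miR-1 was not tested beyond these lists.

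**Figure D4:**
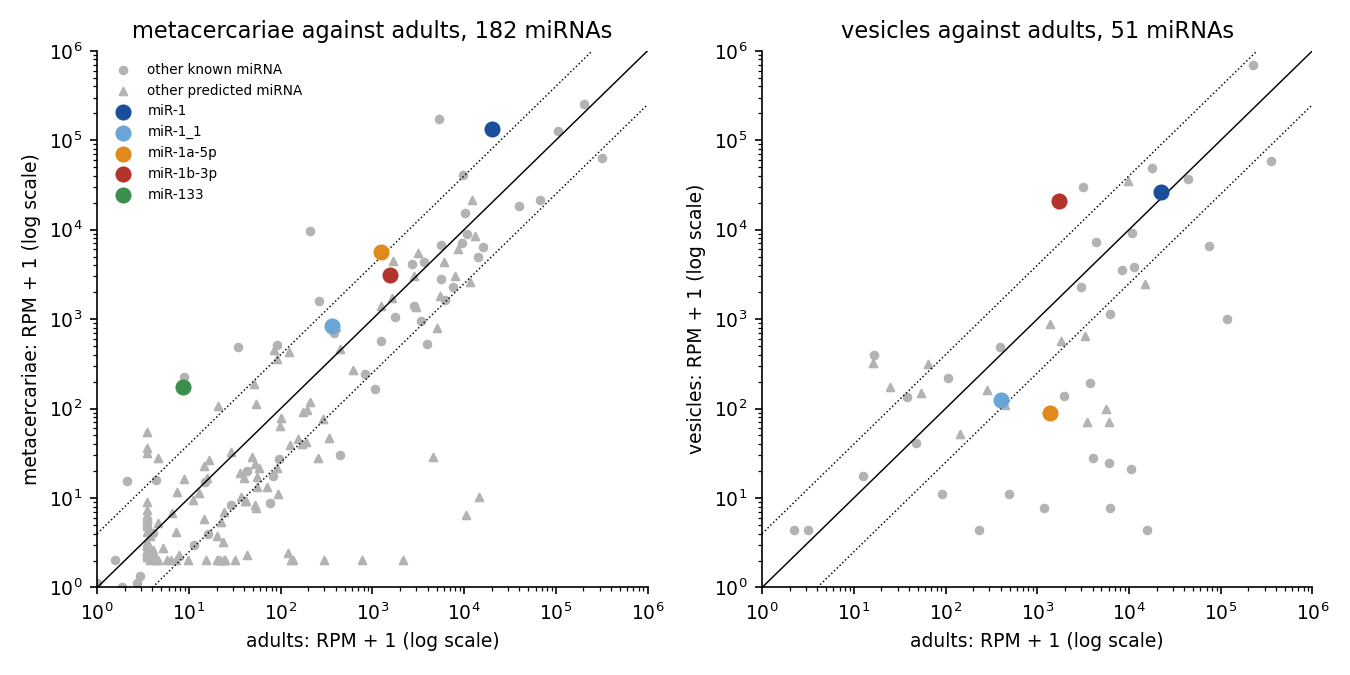
Each point is a miRNA, with RPM + 1 in adults on the x axis and in metacercariae (left, 182 miRNAs) or vesicles (right, 51 miRNAs) on the y axis, both log axes. The solid line marks equal levels and the dotted lines 4-fold. On the left miR-133, miR-1 and, by little, miR-1a-5p lie above the upper dotted line, and on the right miR-1b-3p lies above it and miR-1a-5p below the lower one.

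Eggs lay nearer to adults than to metacercariae in miR-1, miR-1a-5p, miR-1b-3p and miR-133. For miR-1_1 the nearer stage depended on the scale, with log2 folds of 0.55 against adults and -0.65 against metacercariae on miRNA RPM, and 0.99 and -0.77 with TMM factors. miR-133 had a ratio of 1.22 (0.729 to 2.06), which spans equality. miR-1a-5p had a ratio of 1.08 (1.04 to 1.13), miR-1_1 of 1.46 (1.37 to 1.57), miR-1 of 0.916 (0.907 to 0.925) and miR-1b-3p of 0.494 (0.473 to 0.516). By the size rule 0 of 5 members were higher and 0 lower, against 6.59% higher and 21.0% lower of 167 miRNAs (11 and 35). Other scalings gave 11 and 21 (authors' RPM), 18 and 23 (TMM), 20 and 19 (median of ratios) and 14 and 28 (known miRNAs only). The median log2 fold was 0.12 for the members and -0.59 for all 167. For the 55 known miRNAs among these it was -0.24, with 6 higher and 10 lower. The direction of miR-1 and of the family sum turned under 4 other scalings, with log2 values of the family between 0.06 and 0.65, so eggs and adults cannot be ordered for miR-1.

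Against metacercariae, eggs were lower in all 5 members. miR-133 was 18.8-fold lower (13.7 to 26.4), miR-1 7.33-fold (7.28 to 7.38), miR-1a-5p 4.19-fold (4.07 to 4.30) and miR-1b-3p 4.07-fold (3.93 to 4.22). These 4 of 5 were counted as lower and 0 as higher, where 16.1% of 186 miRNAs were lower and 16.1% higher (19 higher and 39 lower by the authors' RPM). miR-1_1 was 1.57-fold lower (1.50 to 1.65) and was not counted. The members' median log2 fold was -2.07 and that of all 186 miRNAs 0.22. Of the 186, 131 were predicted miRNAs. The 55 known miRNAs, the class of the members, had a median of -0.46, with 8 higher and 15 lower. miR-1a-5p and miR-1b-3p were no longer counted when known miRNAs alone set the scale (log2 -1.67 and -1.63). This comparison shares the metacercaria library with the one above, and the order of folds in it is no separate evidence.

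Vesicles were set against adults over the 51 miRNAs that have a row in each table, with their sum as the scale, and miR-133 is not among them. miR-1b-3p had 20768 RPM on this scale in vesicles and 1731 in adults, a ratio of 12.0 (11.6 to 12.4). It was the third highest ratio of 51. miR-1a-5p had 87.2 and 1365 RPM, 15.7-fold lower in vesicles (10.7 to 24.0). It ranked 38 of 51 from the highest ratio, within the lower group and not at its end. By the size rule 1 of 4 members was higher and 1 lower, against 11.8% and 43.1% of the 51 miRNAs (6 and 22). Other scalings gave 5 and 24 (authors' RPM), 11 and 17 (TMM), 13 and 15 (median of ratios) and 12 and 16 (without the most abundant miRNA).

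The other entries lay between. miR-1 had 26324 RPM in vesicles and 22319 in adults, a ratio of 1.18 (1.15 to 1.21), and its direction turned with the authors' RPM (log2 -0.15). miR-1_1 was 3.23-fold lower on 37 vesicle tags (2.33 to 4.61), and it was counted as lower with the authors' RPM (log2 -2.02). The family sum had a ratio of 1.83 (1.80 to 1.87), and 1.10 without miR-1b-3p (1.08 to 1.13). The median log2 fold was -0.72 for the 4 members and -1.50 for all 51. For the 36 known miRNAs among these it was -1.39, with 3 higher and 16 lower. With median-of-ratios factors, which moved the median of all entries by 1.50, the family sum was counted as higher (log2 2.40).

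Vertebrate miRNA classes were more abundant in the vesicle library than in adults. Of the 11 families of blood, liver and bile duct 10 had tags, at 3918 RPM of annotated tags against 36.2 in adults. mir-122, the liver miRNA, led them with 5577 tags. The 10 other vertebrate families had 9 detected and 2348 RPM against 46.2. In the muscle list mir-486, which red blood cells also hold, had 1082 tags, while mir-206, mir-208 and mir-499 had 0. The part of vertebrate RNA in the vesicle level of miR-1b-3p was not tested.

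A second readout of the same libraries exists for both families. Tags are also listed under Rfam precursor classes, apart from the mature entries. The mir-1 class had 6941 tags in metacercariae, 46 in adults, 44 in vesicles and 2 in eggs. The mir-133 class had 474, 4, 9 and 3 tags in the same order. Metacercariae were highest in both classes, and in eggs both were near the floor of 3 tags. The 9 vesicle tags of the mir-133 class stood beside 0 tags of the entry miR-133.

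Per 1000000 annotated tags the mir-1 class was 143-fold higher in metacercariae than in adults (107 to 195). The known miR-1 entries on the same scale had a ratio of 14.1 (14.0 to 14.2). The mir-133 class had a ratio of 112 (43.5 to 414) and the entry miR-133 one of 51.9 (35.5 to 79.0). All Rfam precursor classes together also had more tags in metacercariae, 656225 against 23185 in adults. The mir-124 class alone was 86.6% of them in metacercariae and 36.5% in adults. Within these class tags mir-1 was 1.06% in metacercariae and 0.198% in adults, and mir-133 0.0722% and 0.0173%. In vesicles the mir-1 class was 7.86-fold higher than in adults (5.08 to 12.2) and the mir-133 class 18.5-fold (5.16 to 82.2). All Rfam precursor classes together also had more tags in vesicles, 69958 against 23185 in adults, although the vesicle library had fewer annotated tags. As a part of these class tags mir-1 was lower in vesicles, at 0.0629% against 0.198% in adults. The mir-133 class was 0.0129% of them against 0.0173%, on 9 and 4 tags, and this difference was not tested. The mir-1 class of eggs had a ratio of 0.0411 to adults (0.00483 to 0.157), on 2 egg tags.

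The mir-1 class therefore varied more between libraries than the known entries. There were 5.61 class tags per 1000 known miR-1 tags in metacercariae (5.48 to 5.75), 3.12 in vesicles (2.27 to 4.19), 0.555 in adults (0.406 to 0.740) and 0.0219 in eggs (0.00265 to 0.0791). For miR-133 the values were 320 in metacercariae (288 to 355), 148 in adults (37.7 to 425) and 75.0 in eggs (14.8 to 235), and the interval of adults overlapped those of both other stages, while those of eggs and metacercariae lay apart. The mir-124 class, of the neuronal family, gave 363 in metacercariae (362 to 365) and 425 in adults (414 to 436), the opposite order to mir-1, and 8.29 in eggs. Which part of a hairpin the tags of an Rfam class cover, and which species they come from, is not given in the sources used here.

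**Figure D5:**
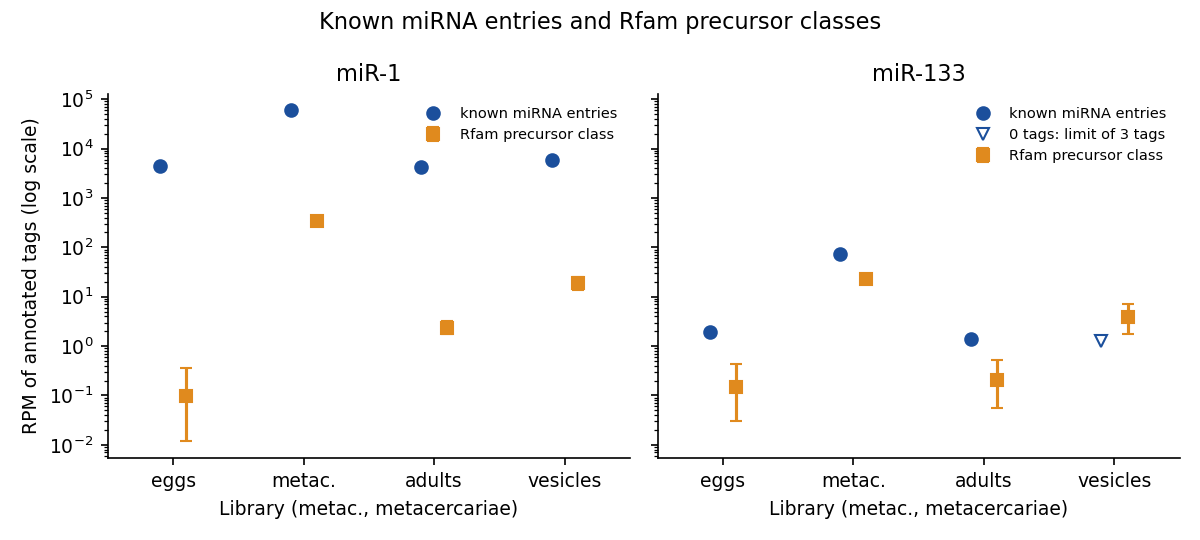
RPM of annotated tags, on log axes, of the known miRNA entries (circles) and the Rfam precursor class (squares, with exact 95% counting intervals) of miR-1 (left) and miR-133 (right) in each library. The open triangle is the limit of 3 tags. The mir-1 class spans from 0.0974 RPM in eggs to 339 in metacercariae, and the known entries from 4274 in adults to 60351 in metacercariae.

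Likeness to other miRNAs was measured as the distance between centred log2(RPM + 1) values over the 3 stages, where 0 is the same pattern. On miRNA RPM, miR-133 was nearest to miR-124a-3p (distance 0.48), the neuronal miRNA, which had 173156 RPM in metacercariae, 7479 in eggs and 5383 in adults. The predicted novel_mir36 (0.62, scaffold DF142853, 783117 to 783174) and new_miR-001 (0.69) came next among 119 candidates. new_miR-001 had 1913 tags in metacercariae, 28 in adults and 25 in eggs. By the authors' RPM the 3 nearest to miR-133 were new_miR-001, miR-7-5p_1 and the entry miR-1, and miR-124a-3p was not among them.

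The miR-1 family was nearest to the predicted novel_mir146 (0.19, scaffold DF144088, 4651 to 4706), novel_mir136 (0.40, scaffold DF142865, 664762 to 664820) and novel_mir43 (0.53, scaffold DF144243, 118515 to 118580) among 116 candidates. These had 234, 266 and 305 tags in metacercariae and at most 14 in another stage. novel_mir36, novel_mir136 and novel_mir43 were not listed in adults, where 9 tags, the most an unlisted predicted miRNA can hold, stood in. Among known miRNAs the nearest to the family were miR-307 (0.68), miR-7-5p (0.68) and miR-7-3p (0.81). miR-307 had 1573 RPM in metacercariae, 413 in eggs and 260 in adults. With 3 libraries these distances are descriptions. Scaling by the authors' RPM shared 0 of 3 nearest entries for the miR-1 family and 1 of 3 for miR-133. The minimum mean of 10 RPM for a candidate was applied on each scale. On the authors' RPM novel_mir146, novel_mir136, novel_mir43 and novel_mir36 fall below it, so the 0 for the miR-1 family was fixed by that minimum.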

How the data were processed

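Small RNA of 4 libraries, 1 per group, was used. The authors deposited raw tag counts per entry and, per the file headers, a column headed TPM, which equals counts per 1000000 annotated tags (RPM) with no length correction. The deposited counts of each library summed to the total in its header. For the aligner, the class annotation and the genome build, the answer is not given in the sources used here. Trizol extraction and standard Illumina libraries are recorded per the labels' protocols. The vesicle table's predicted miRNAs were matched to those of adults by overlapping coordinates. 1 deposited column of counts, of another species, was not used.

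The members and lists were chosen with earlier results of these data known. Predicted miRNAs are listed from 10 tags, so an unlisted one was set to 9 tags, and an unlisted known one to 0. Ratios carry exact conditional binomial, shares Clopper-Pearson and levels exact Poisson intervals at 95% (scipy 1.17.1). The intervals and the limit of 3 tags for a count of 0 cover counting error only, since amplified tags that carry no molecular identifier do not count molecules independently. The size rule, with a pseudocount of 1 RPM, was run on simulated counts that held counting error only. Changed entries there had folds well beyond that of the rule, so the rule was not tested near its thresholds. Each member was named in every library. The 3 entries nearest in pattern, among miRNAs with a mean of at least 10 RPM, were named for miR-1 and miR-133. Vertebrate families were matched by name to known and Rfam entries, leaving out mir-200, whose class is shared with mir-8. Alternatives were other scalings (edgeR 4.0.16 for TMM, DESeq2 1.42.0 for median-of-ratios factors), pseudocounts and size rules. The scaling of vesicles to all miRNA tags was chosen after seeing the data.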

Additional observations from a re-analysis of the deposited data

How the results depend on the processing

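The labels hold no replicates, so no library could be left out and no paired analysis was possible because each group is 1 library. In metacercariae against adults all 5 members were counted as higher with the authors' RPM and with a 2-fold rule (5 each). In eggs against adults the sign of miR-1 turned with the authors' RPM, TMM, median-of-ratios factors and known miRNAs only, to log2 values of 0.074, 0.315, 0.669 and 0.186. The family sum turned to 0.057, 0.298, 0.652 and 0.169, and miR-1a-5p to -0.003 without the most abundant miRNA. The 2-fold rule counted 1 member as lower there. In eggs against metacercariae 2 members were counted as lower with known miRNAs only. In vesicles against adults miR-1 turned to -0.152 with the authors' RPM, and 2 members were lower with the authors' RPM and with the 2-fold rule (2 each). The family sum there was counted as higher with median-of-ratios factors (2.396). Scalings moved the median log2 fold of all miRNAs by up to 0.86 in metacercariae against adults, 0.63 in eggs against adults, -0.65 in eggs against metacercariae and 1.50 in vesicles against adults. Without miR-1a-5p the share of miR-1 in its family was 97.1% in metacercariae, 93.4% in eggs and 91.3% in adults. The metacercaria ratio of miR-1 to miR-133 was 780 with the entry miR-1 alone, and the lower bound in vesicles was 2617 with that entry alone and 2638 without miR-1b-3p. Of the 3 entries nearest to the miR-1 family 0 were shared with the authors' RPM. On that scale they fall below the minimum mean of 10 RPM, so 0 could be shared. With known miRNAs only 0 could be shared either, since the 3 entries are predicted miRNAs. Of the 3 nearest to miR-133, 1 was shared with the authors' RPM and 2 with known miRNAs only. Among these, novel_mir36 could be shared in neither setting for the same reasons, and miR-124a-3p was lost with the authors' RPM. The cause of the other differences was not tested. Depth limits miR-133 most, with 27 tags in adults and a vesicle limit of 9.93 RPM.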
